A study of Mus musculus with 6 samples.

Results

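Described here are 32 nuclear genes whose proteins carry out mitochondrial respiration, out of 43283 gene identifiers in an RNA sequencing table of cultured mouse muscle stem cells. They were taken by symbol from a list that holds 14 subunits of complex I, 6 of complex III, cytochrome c (Cycs), 7 of complex IV and 4 of ATP synthase, and all 32 were found, the ATP synthase genes under their older symbols. One group of cells was cultured for 24 h with prostaglandin E2 (PGE2), a lipid mediator of inflammation, at a dose that the labels do not give. The other received Vehicle, which was DMSO. Each group has 3 libraries. Both groups share everything else that the labels state. The cells came from hindlimb muscles of female C57BL/6 mice aged 8 to 12 weeks per the sample labels (2 to 4 months per the series text), carried no transgene, and were sorted by flow cytometry as α7-integrin+ CD34+ cells without CD45, Sca1, CD31 and CD11b. The culture medium held 20% fetal bovine serum, and RNA from 5000 to 10000 cells was amplified before sequencing. Per the labels the libraries are biological triplicates, without word on separate mice or sorts, so the spread behind each p-value may be technical.

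Respiration passes electrons from NADH through complex I, and from succinate through complex II, to ubiquinone, then through complex III and cytochrome c to complex IV, which reduces oxygen. The proton gradient built on the way drives ATP synthase. Most subunits are encoded in the nucleus and a small set in mitochondrial DNA, so each complex is put together from the products of both genomes, with the help of assembly factors. Transcription of many nuclear subunit genes is known to involve the factors NRF1 and GABP (also called NRF2), and the cytochrome c promoter is also a known target of CREB, the factor that cAMP signalling activates. In resting muscle stem cells respiration is low and mitochondria are few, and both increase when the cells are activated.

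The promoters below are shown because Uqcrc1 and Uqcrfs1 had groups that did not overlap, Uqcrh had the highest fitted change, and Cycs carries the textbook sites. RefSeq windows from 250 bases before to 50 bases after the transcript start (300 bases, build GRCm38.p6) were matched for 23 of the 32 members. Capitals mark a motif found on either strand. Cycs holds the cAMP response element TGACGTCA at -169 to -162 and the NRF1 motif, GCGCATGC or its reverse complement GCATGCGC, at -60 to -53. Uqcrc1 holds the NRF1 motif on both strands in one overlapping run, at +31 to +38 and +33 to +40. Uqcrfs1 holds TGACGTCA at -29 to -22, and Uqcrh holds CTTCCGG, the reverse complement of the GABP motif CCGGAAG, at -10 to -4. Positions are counted from the RefSeq start, and the stretches lie at chr6:50566570-50566819 (minus strand) for Cycs, chr9:108936667-108936696 (plus) for Uqcrc1, chr13:30545327-30545356 (minus) for Uqcrfs1 and chr4:116075072-116075171 (minus) for Uqcrh.
Cycs: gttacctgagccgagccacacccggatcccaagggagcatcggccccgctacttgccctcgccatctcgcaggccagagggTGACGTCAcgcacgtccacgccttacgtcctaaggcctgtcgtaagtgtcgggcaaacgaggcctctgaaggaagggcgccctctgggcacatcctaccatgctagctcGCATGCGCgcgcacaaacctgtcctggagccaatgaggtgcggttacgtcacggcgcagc
Uqcrc1: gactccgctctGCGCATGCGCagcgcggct
Uqcrfs1: cggcgtcgcgcTGACGTCAcaaaccctgcg
Uqcrh: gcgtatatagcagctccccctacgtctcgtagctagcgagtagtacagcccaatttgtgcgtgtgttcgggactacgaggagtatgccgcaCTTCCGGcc

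Over the 23 matched members, the full cAMP response element was present in 2 (8.7%, against 2.03% of 27025 mouse genes), and its shorter form TGACG, which the full element contains, in 11 (47.8%, against 23.0%). A gene was counted when any of its windows held the motif. The 27025 genes were not limited to those expressed here or matched to the members for base composition. The NRF1 motif was present in 2 members (8.7%, against 3.05%), Cycs and Uqcrc1, and the GABP motif in 4, which were Cox8a, Ndufs3, Ndufs8 and Uqcrh (17.4%, against 9.93%). These shares describe letters in a window, and the file holds no measure of factor binding.

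The nuclear respiratory genes were well expressed in both groups and no member passed the test. Values are TPM, a transcript's share of the library corrected for its length, so levels can be compared between genes. Of 12781 genes tested with limma on log2(TPM + 1), those with at least 1 TPM in 3 or more libraries, 0 (0%) had a Benjamini-Hochberg adjusted p under 0.05, and 464 (3.63%) had an unadjusted p under 0.05 (1.57% of the tested genes upward and 2.06% downward with PGE2). All 32 members passed the filter. Among them 0 were called and 0 had an unadjusted p under 0.05, and the adjusted p was 1.00 for each. Fitted values with PGE2 were higher for 17 members and lower for 15, a share of 53.1% higher, against 43.9% of all tested genes. The median log2 change, PGE2 minus Vehicle, was 0.01 over the members and -0.07 over all tested genes. Members ran between -0.61 for Ndufc2 and 0.73 for Uqcrh.

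The fit limits how large a change could have been. The 95% confidence interval excluded a 4-fold difference in either direction for all 32 members and a 2-fold difference in either direction for 9, and it included 0 for every member. The median interval reached 0.97 on the log2 scale to each side of the estimate, against 1.21 over all tested genes and 0.94 over the 6583 genes at or above the level of the lowest member. In 2 members, 6.25%, every PGE2 library lay on one side of every Vehicle library, against 8.01% of all tested genes, a share near the background. These were the complex III genes Uqcrc1, higher with PGE2 (1 of 32, against 3.18% of all tested genes), and Uqcrfs1, lower with PGE2 (1 of 32, against 4.84%).

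**Figure D1:**
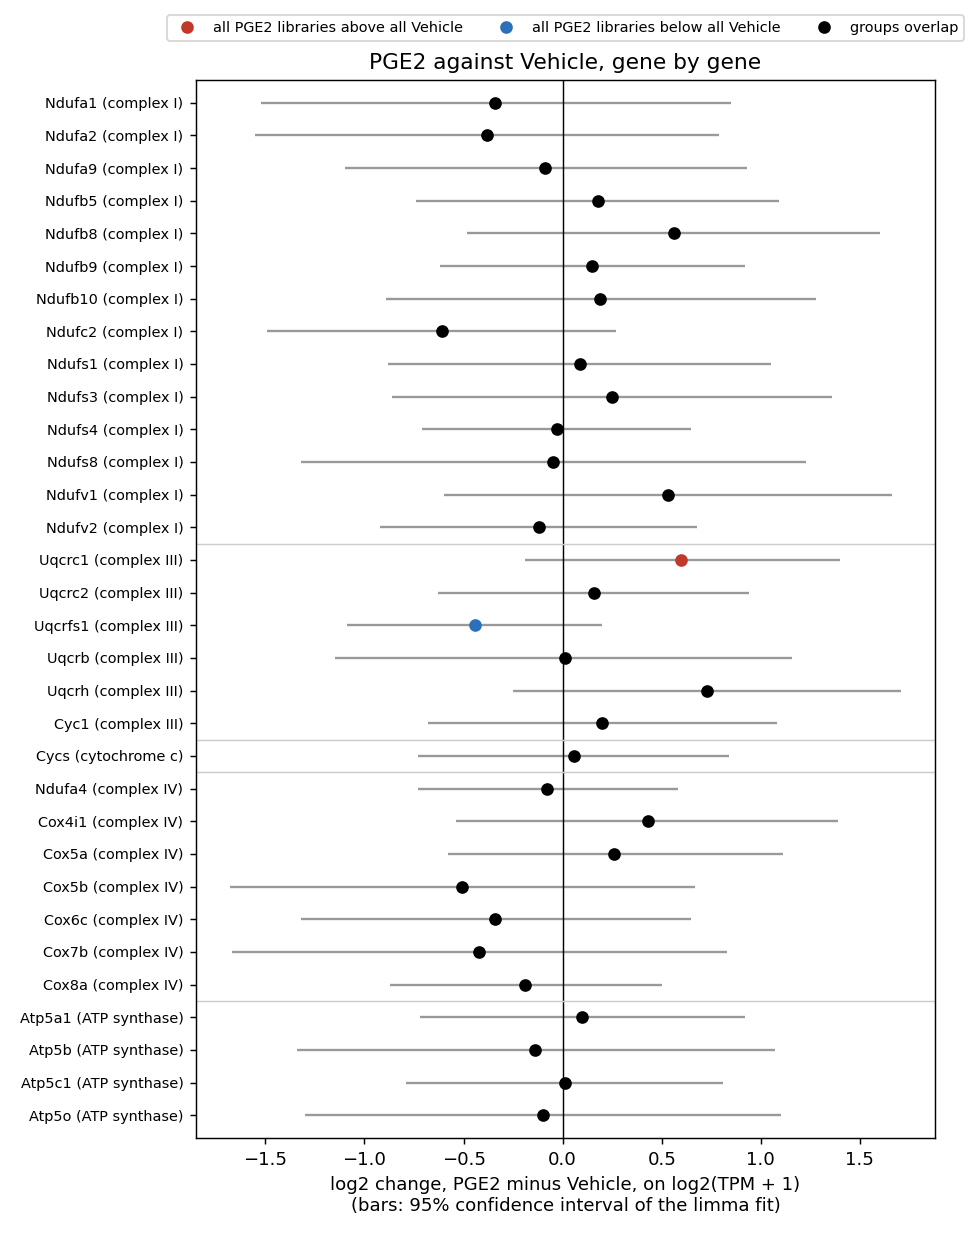
Log2 change, PGE2 minus Vehicle, of the 32 genes on the log2(TPM + 1) scale, grouped by complex, with bars for the 95% confidence interval of the limma fit. Points run between -0.61 and 0.73, and every bar crosses 0.

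Complex III passes electrons between ubiquinol and cytochrome c, and it holds both members whose groups did not overlap. Fitted values were higher with PGE2 for 5 of the 6 and lower for 1, with a median log2 change of 0.18. The count of higher members was 4 of 6 when TPM was rescaled without mitochondrial genes or when quantile normalization was used, and it was 3 without PGE2 1 and 4 without PGE2 2, PGE2 3 or Vehicle 3. Uqcrc1, a large core subunit on the matrix side of the complex (chr9:108936633-108949623, plus strand, mm10), read 31.7, 21.5 and 29.8 TPM in PGE2 1 to 3, against 20.1, 18.8 and 14.5 TPM in Vehicle 1 to 3. Every PGE2 library was above every Vehicle library, with 1.44 TPM between the lowest PGE2 and the highest Vehicle library. The means were 27.7 ± 5.44 and 17.8 ± 2.90 TPM (SD, n = 3 each), the log2 change was 0.60 (95% confidence interval -0.19 to 1.40), and limma gave an unadjusted p of 0.123, adjusted p = 1.00.

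Uqcrfs1 encodes the Rieske iron-sulfur protein, which takes the first electron from ubiquinol (chr13:30540308-30545362, minus strand). It read 135, 157 and 116 TPM with PGE2, against 229.8, 170.2 and 159 TPM with Vehicle. Every PGE2 library was below every Vehicle library, although PGE2 2 and Vehicle 3 were within 1.18 TPM, and with median-ratio scaling the groups overlapped. Means were 136 ± 20.8 TPM with PGE2 and 186 ± 38.2 TPM with Vehicle (SD, n = 3 each). The log2 change was -0.44 (-1.09 to 0.20), with a limma unadjusted p of 0.158 and adjusted p = 1.00.

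Uqcrh, the hinge protein that helps cytochrome c1 hold cytochrome c (chr4:116066965-116075071, minus strand), read 333, 236 and 95.9 TPM with PGE2, against 149, 119 and 92.4 TPM with Vehicle. PGE2 1 and PGE2 2 were above all Vehicle libraries, while PGE2 3 lay among them. Its log2 change, 0.73 (-0.25 to 1.71, limma unadjusted p = 0.13, adjusted p = 1.00), was the highest of the members. This change was 1.24 without PGE2 3 (limma unadjusted p = 0.0059, adjusted p = 0.628). It was 0.35 without PGE2 1 (limma unadjusted p = 0.427, adjusted p = 0.836), and it lay between 0.55 and 0.89 without any other single library. Uqcrb, a small subunit near the ubiquinone site, read 469, 2106 and 1065 TPM with PGE2, against 1365, 1069.9 and 709 TPM with Vehicle. Both its lowest and its highest library were PGE2 libraries, and its log2 change was 0.01 (-1.15 to 1.16). The other complex III members, Uqcrc2 (a core subunit) and Cyc1 (cytochrome c1), had log2 changes of 0.16 and 0.20 with overlapping groups.

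Complex I, the entry point for electrons from NADH, had 7 members with higher and 7 with lower fitted values and a median log2 change of 0.03. Without PGE2 3 the counts were 10 and 4 (median 0.25), and without PGE2 1 they were 5 and 9 (median -0.13). They were 6 and 8 without Vehicle 3. Ndufb8, an accessory subunit of the membrane arm, had the highest change. It read 71.2, 122 and 93.0 TPM with PGE2, against 86.1, 101 and 28.4 TPM with Vehicle. Vehicle 3 was the low library and the other values overlapped. The log2 change was 0.56 (-0.48 to 1.60, limma unadjusted p = 0.259, adjusted p = 1.00), and it was -0.0011 without Vehicle 3. Ndufc2, also an accessory subunit of the membrane arm, had the lowest change of all members. It read 156, 239 and 156 TPM with PGE2, against 464, 271 and 166 TPM with Vehicle. PGE2 1 and PGE2 3 were below all Vehicle libraries and PGE2 2 was above Vehicle 3. Its log2 change was -0.61 (-1.49 to 0.27, limma unadjusted p = 0.152, adjusted p = 1.00).

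The peripheral arm of complex I holds the flavin and iron-sulfur clusters that carry electrons. Ndufv1, which binds NADH and the flavin, read 47.4, 33.1 and 13.9 TPM with PGE2, against 11.4, 22.9 and 26.6 TPM with Vehicle. PGE2 1 and PGE2 2 were above all Vehicle libraries and PGE2 3 was not, and the log2 change was 0.53 (-0.60 to 1.66). Ndufs8, a carrier of iron-sulfur clusters, was the least expressed member, with 10.04, 9.29 and 4.94 TPM with PGE2, against 10.1, 13.9 and 3.48 TPM with Vehicle. Its groups overlapped throughout, at a log2 change of -0.05 (-1.32 to 1.23). The core subunits Ndufs1, Ndufs3 and Ndufv2 had log2 changes of 0.09, 0.25 and -0.12. The accessory subunits Ndufa1, Ndufa2, Ndufa9, Ndufb5, Ndufb9, Ndufb10 and Ndufs4, the last of which is known for mutations in Leigh syndrome, ran between -0.38 for Ndufa2 and 0.19 for Ndufb10. All of them had overlapping groups.

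Cytochrome c is the soluble protein that carries electrons between complex III and complex IV and that starts apoptosis when it leaves the mitochondrion. Cycs (chr6:50562563-50566538, minus strand) read 96.8, 65.3 and 45.4 TPM with PGE2, against 67.55, 74.5 and 50.7 TPM with Vehicle. PGE2 1 was the highest and PGE2 3 the lowest of the 6 libraries. The means were 69.2 ± 25.9 and 64.3 ± 12.2 TPM (SD, n = 3 each), and the log2 change was 0.06 (-0.73 to 0.84, limma unadjusted p = 0.876, adjusted p = 1.00).

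The level of Cycs depends on how reads were shared among near-identical loci. With at least 95% identity over 80% of the copy, 4 annotated copies of Cycs were found in the table, and Gm10053 and Gm10108 held nearly all of their TPM. Gm10053 (chr19:24875686-24876631, annotated as protein-coding) matched Cycs at 99.9% identity over 946 bases and read 272, 117 and 222 TPM with PGE2, against 172, 193 and 214 TPM with Vehicle. Gm10108 (chr5:13121448-13121766, a processed pseudogene) matched at 99.4% over 319 bases and read 158, 288 and 182 TPM with PGE2, against 142, 143 and 288 TPM with Vehicle. The copies together held 81.7%, 86.5% and 89.9% of the summed TPM in the PGE2 libraries, and 82.3%, 81.8% and 90.8% in the Vehicle libraries. Most of the signal assigned to cytochrome c sequence therefore stood outside the Cycs row in every library. The sum over Cycs and its copies was 529, 484 and 449 TPM with PGE2, against 382, 410.3 and 553 TPM with Vehicle, also with overlapping groups. Its log2 change was 0.14 (limma unadjusted p = 0.647). How much of the copies' signal is their own RNA was not tested.

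**Figure D2:**
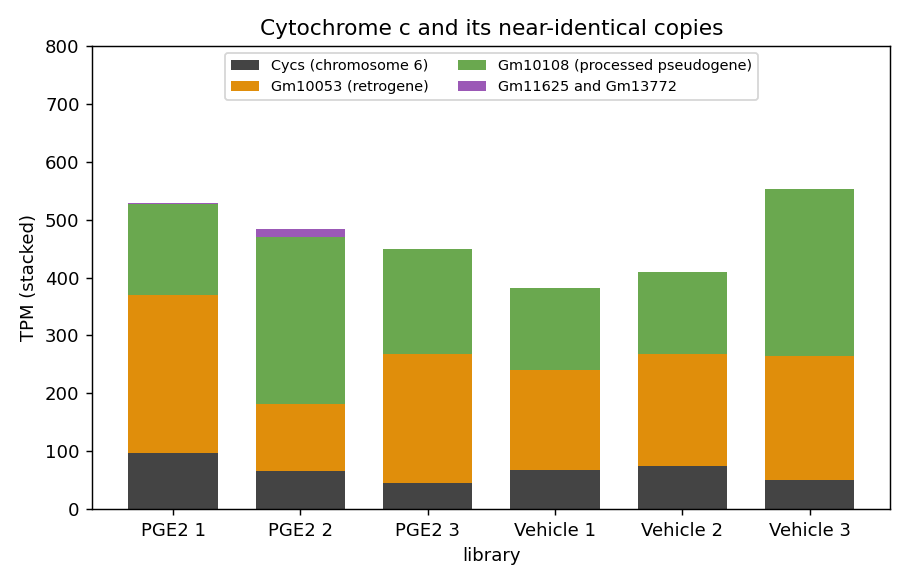
Stacked TPM of Cycs and its near-identical copies in each library (linear axis), PGE2 libraries left of Vehicle libraries. Cycs itself is the smaller share in each bar, between 45.4 and 96.8 TPM, and the PGE2 totals (449 to 529 TPM) lie within the Vehicle range (382 to 553 TPM).

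Such copies were found for 8 members, 16 copies in all. Beside Cycs the share of TPM on copies was highest for Atp5o, at 15.0%, 15.6% and 39.2% in PGE2 1 to 3, against 15.3%, 16.8% and 41.5% in Vehicle 1 to 3. For Uqcrb it lay between 14.2% and 33.8% with PGE2 and between 13.0% and 18.4% with Vehicle. Cox6c, Cox7b, Cox5b, Ndufs3 and Atp5c1 also have copies, so the levels of these genes are uncertain where reads could be split. The exons of 12 members overlap those of another annotated gene, on the opposite strand for 11, and the sources used here do not say whether counting used the strand. The highest such neighbour was Eef1b2, a translation elongation factor gene opposite Ndufs1, with 990.2, 399 and 254 TPM with PGE2, against 639, 456 and 263 TPM with Vehicle. Ndufs1 itself lay between 39.5 and 118 TPM with PGE2 and between 43.8 and 61.6 TPM with Vehicle.

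Complex IV reduces oxygen to water. Fitted values were higher with PGE2 for 2 of its 7 members and lower for 5, with a median log2 change of -0.19; these counts were the same under each rescaling of TPM, and between 1 (without PGE2 2) and 4 (without Vehicle 1) were higher when 1 library was left out. Cox4i1, the ubiquitous isoform of the subunit through which ATP inhibits the enzyme, read 111, 64.95 and 46.5 TPM with PGE2, against 29.5, 67.0 and 68.6 TPM with Vehicle. The extremes were PGE2 1 at the top and Vehicle 1 at the bottom, and the log2 change was 0.43 (-0.54 to 1.39, limma unadjusted p = 0.351, adjusted p = 1.00). Cox5b, which binds zinc on the matrix side, read 90, 46.5 and 126 TPM with PGE2, against 188, 161 and 50.6 TPM with Vehicle. Its lowest value was in PGE2 2 and its next lowest in Vehicle 3, and the log2 change was -0.51 (-1.68 to 0.67, limma unadjusted p = 0.359, adjusted p = 1.00).

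Cox7b, a small membrane subunit, read 184, 267 and 729 TPM with PGE2, against 789.9, 478 and 228 TPM with Vehicle. Each group spanned more than 3-fold, and the log2 change was -0.42 (-1.67 to 0.83). Ndufa4, long counted as a complex I subunit and now placed in complex IV, was among the steadiest members. It read 277, 240.3 and 188 TPM with PGE2, against 289, 256 and 199 TPM with Vehicle, with a log2 change of -0.08 (-0.73 to 0.58). The remaining members Cox5a, Cox6c and Cox8a had log2 changes of 0.26, -0.34 and -0.19 and overlapping groups.

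ATP synthase uses the proton gradient to make ATP, and its 4 members, subunits of the F1 head (Atp5a1, Atp5b, Atp5c1) and of the stalk that holds it (Atp5o), divided into 2 with higher and 2 with lower fitted values. That count rested on single libraries: 0 of 4 were higher without PGE2 1 (median log2 change -0.50) and 4 of 4 without PGE2 2 (median 0.17), and 1 of 4 was higher when TPM was rescaled without mitochondrial genes. Atp5b, the catalytic β subunit (chr10:128083273-128090391, plus strand), was the most expressed member. It read 4611, 1053 and 1782 TPM with PGE2, against 1517, 2601 and 2926 TPM with Vehicle. PGE2 1 stood above and PGE2 2 below all other libraries. Its means were 2482 ± 1880 and 2348 ± 738 TPM (SD, n = 3 each), with a log2 change of -0.14 (-1.34 to 1.07) that is lower on the log scale although the PGE2 mean is higher. Atp5a1, the α subunit that forms the F1 ring with β, read 354, 184 and 144 TPM with PGE2, against 225, 211 and 159.6 TPM with Vehicle. Its groups overlapped, at a log2 change of 0.10 (-0.72 to 0.92). The γ subunit gene Atp5c1 and Atp5o had log2 changes of 0.01 and -0.10.

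Levels differed between the members far more than between the groups. Averaged over the 6 libraries, Atp5b stood at 2415 TPM, followed by Uqcrb at 1131 TPM, Cox7b at 446 TPM, Cox6c at 301 TPM, Ndufc2 at 242 TPM and Ndufa4 at 241 TPM. At the low end were Ndufv1 at 25.9 TPM, Uqcrc1 at 22.7 TPM and Ndufs8 at 8.63 TPM. The highest mean was 280-fold the lowest, and 20 members were under 100 TPM. All but Ndufs8 were above the median level of the tested genes, and 13 were in the top 10%. Of the 31 pairs of neighbours in this order, 30 had overlapping ranges across libraries, and 1 did not, Uqcrc1 above Ndufs8.

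**Figure D3:**
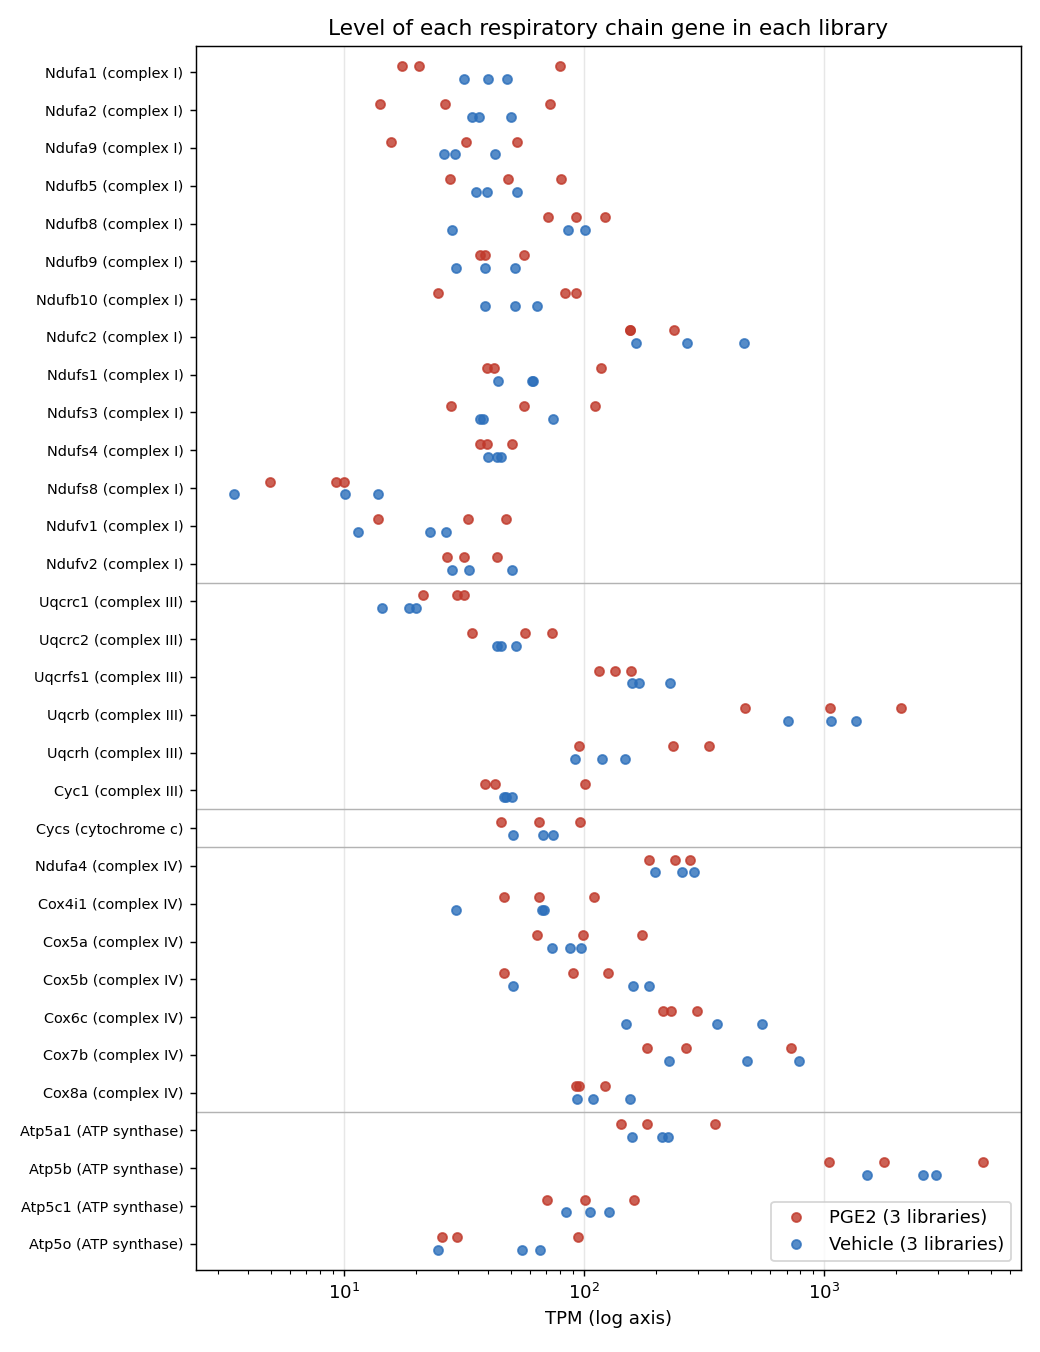
TPM of each of the 32 genes in each library on a log axis, ordered by complex, with PGE2 and Vehicle libraries in separate colours. Levels run between 3.48 TPM (Ndufs8) and 4611 TPM (Atp5b), and the groups overlap for all genes but Uqcrc1 and Uqcrfs1.

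Single libraries stood apart across many members at a time. PGE2 1 was the highest library for 16 of the 32 members, against 30.1% of all tested genes. PGE2 3 was the lowest for 15, a count not made over all tested genes. The median deviation of the members from their own 6-library means was 0.48, -0.01 and -0.41 on the log2 scale in PGE2 1 to 3, against 0.18, 0.08 and -0.31 in Vehicle 1 to 3. The same median over all tested genes was 0.21, -0.10 and -0.17 in PGE2 1 to 3, against 0.07, 0.05 and 0.03 in Vehicle 1 to 3. PGE2 1 was thus also high, and PGE2 3 low, over all tested genes. PGE2 1 was above all Vehicle libraries for 18 of the 32 members, against 37.5% of all tested genes, and PGE2 3 below all of them for 17, against 37.2%. PGE2 1 was higher than PGE2 3 for 26 members, also a count not made over all tested genes. The PGE2 libraries thus lay on both sides of the Vehicle libraries. Without PGE2 1, 10 members had higher and 22 lower fitted values with a median log2 change of -0.21, against -0.17 over all tested genes. Without PGE2 3 the counts were 21 and 11 with a median of 0.25, against 0.0069 over all tested genes.

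**Figure D4:**
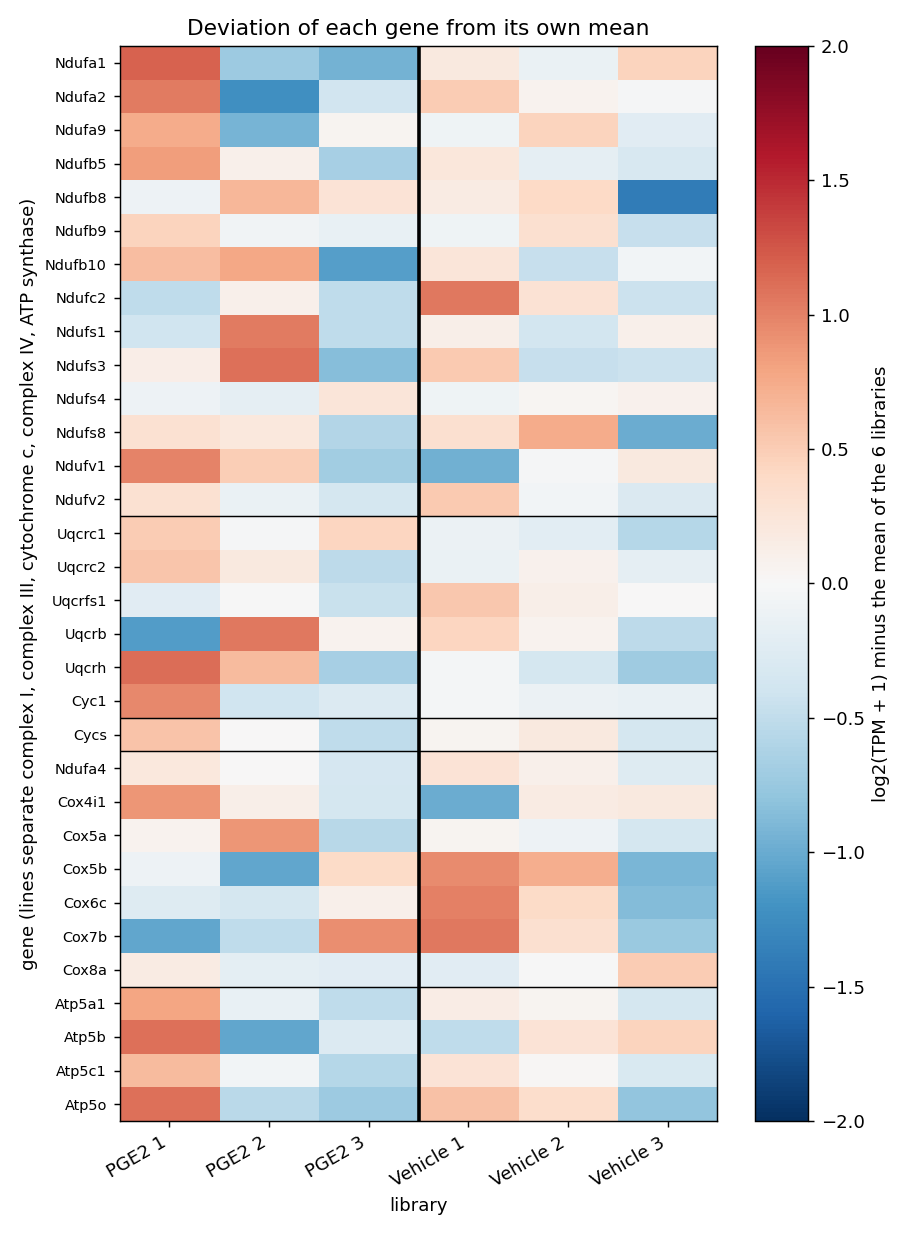
Heat map of log2(TPM + 1) minus the gene's mean over the 6 libraries, genes in rows by complex and libraries in columns, PGE2 left of Vehicle. PGE2 1 is above its mean for most genes (median 0.48), and PGE2 3 and Vehicle 3 are below theirs (medians -0.41 and -0.31).

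The summed TPM of the 32 genes was 8471, 6085 and 5571 in PGE2 1 to 3, against 6974, 6851 and 5858 in Vehicle 1 to 3, so both groups overlapped in the total. These sums were 0.854%, 0.612% and 0.56% of the PGE2 libraries and 0.702%, 0.689% and 0.588% of the Vehicle libraries. Atp5b alone made up 54.4% of the sum in PGE2 1 and 17.3% in PGE2 2. Without Atp5b and Uqcrb the sums were 3390, 2926 and 2724 TPM with PGE2, against 4093, 3180 and 2223 TPM with Vehicle. By complex the sum over complex I members was 892, 932 and 579 TPM with PGE2, against 1072, 807 and 622 TPM with Vehicle. Every complex had overlapping sums. In bulk samples like these, fewer cells of a type and less RNA per cell cannot be told apart.

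Other measures of the libraries were set beside these totals. Genes of the mitochondrial genome held 23.0%, 25.5% and 30.4% of the TPM in the PGE2 libraries, and 20.9%, 28.3% and 33.6% in the Vehicle libraries. The 13 protein-coding genes among them summed to 46724, 95388 and 82018 TPM with PGE2, against 71237, 59819 and 60873 TPM with Vehicle. In each group the member total was highest where the share of all mitochondrial genes was lowest. By the protein-coding sum this held with PGE2 and not with Vehicle, where Vehicle 1 was the highest in both. As a share of the remaining, nuclear TPM, the members held 1.11%, 0.822% and 0.805% with PGE2 and 0.887%, 0.96% and 0.886% with Vehicle, and the median deviation on that scale was 0.41 in PGE2 1 and -0.35 in PGE2 3. Above 0 stood 15400, 16558 and 17710 gene identifiers with PGE2, against 19677, 18201 and 16446 with Vehicle, so that count ran against the member total among the PGE2 libraries and with it among the Vehicle libraries. The part of these measures in the members' values was not tested. Read depth is unknown, since TPM keeps none.

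Markers of the labelled cell type were present, and so were traces of genes the sort selected against. The 8 muscle stem cell and myoblast markers, Pax7, Myf5 and Myod1 among them, summed to between 449 and 611 TPM with PGE2 and between 576 and 656 TPM with Vehicle. Of this sum Myf5 held between 120 and 301 TPM with PGE2 and between 251 and 303 TPM with Vehicle. Levels were uneven, and Cdh15, also in this list, read 5.15, 0.43 and 0.79 TPM with PGE2, against 3.56, 1.38 and 0 TPM with Vehicle. Of the genes behind the sort, Itga7, which encodes α7-integrin, read 13.2, 2.69 and 4.18 TPM with PGE2, against 4.68, 7.24 and 10.45 TPM with Vehicle, and Cd34 lay between 13.1 and 26.2 TPM with PGE2 and between 12.4 and 25.8 TPM with Vehicle. Ly6a, which encodes Sca1, was listed at 0 in PGE2 1 and PGE2 3 and read 13.6 TPM in PGE2 2, against 2.22, 3.38 and 7.92 TPM in Vehicle 1 to 3, and Ptprc, which encodes CD45, reached 4.81 TPM with PGE2 and 4.19 TPM with Vehicle. The 6 endothelial markers summed to 4.88, 9.96 and 19.6 TPM with PGE2, against 3.79, 3.50 and 3.51 TPM with Vehicle, so the groups did not overlap, with 15.3 TPM of Emcn in PGE2 3. Among them Eng read 2.55, 6.44 and 2.54 TPM with PGE2, against 1.57, 1.10 and 0.96 TPM with Vehicle (log2 change 1.05, limma unadjusted p = 0.092, adjusted p = 1.00). Pecam1, which encodes CD31, went the other way (log2 change -0.29). It read 1.36, 1.14 and 0.27 TPM with PGE2, against 0.91, 1.43 and 1.55 TPM with Vehicle. These 2 were the only endothelial markers that passed the filter. Kdr was at most 1.57 TPM, and Cdh5 and Tie1 were at most 0.28 TPM in any library. Leukocyte markers were between 5.67 and 9.69 TPM with PGE2 and between 3.09 and 9.69 TPM with Vehicle, fibro-adipogenic markers between 24.9 and 45.5 TPM and between 18.8 and 31.5 TPM, and pericyte markers between 9.34 and 11.3 TPM and between 5.60 and 14.0 TPM. Most of the fibro-adipogenic sum was Col3a1 (24.94 to 36.45 TPM with PGE2, 15.31 to 28.09 TPM with Vehicle), while Pdgfra, Dcn, Lum and Dpt were at most 1.45 TPM in any library. Most of the pericyte sum was Acta2 (8.68 to 9.24 TPM with PGE2, 4.77 to 13.43 TPM with Vehicle), while Rgs5, Myh11 and Kcnj8 were at most 1.47 TPM. Glial, red cell and muscle fibre markers each summed to at most 9.01 TPM in any library, the haemoglobin genes Hba-a1 and Hbb-bs were listed at 0 in all, and Pdgfrb, which marks pericytes, was too. The fibre actin gene Acta1 read 0.90, 3.47 and 0.81 TPM with PGE2, against 3.79, 6.71 and 6.82 TPM with Vehicle, without overlap (log2 change -1.41, limma unadjusted p = 0.0374, adjusted p = 1.00). The part of these cells in the values above was not tested.

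Replicate spread was wider with PGE2, and not only for these genes. The median SD of log2(TPM + 1) was 0.695 over the members with PGE2 and 0.357 with Vehicle, over all tested genes 0.663 and 0.433, and over genes at or above the level of the lowest member 0.538 and 0.334. The PGE2 group had the larger SD for 22 members, 68.8%, against 69.5% of all tested genes. The highest library was more than 3-fold the lowest for 16 members.

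The rest of the pathway gave no call either, in lists made by function but with earlier results of these data known. None of its genes passed the limma threshold. The other 42 nuclear subunits of complexes I, III, IV and V had 19 higher and 23 lower fitted values and a median log2 change of -0.07. Groups did not overlap for 2 of them, 4.76%. Ndufa5, a complex I subunit, read 88.3, 63.9 and 54.8 TPM with PGE2, against 52.4, 54.3 and 18.8 TPM with Vehicle (log2 change 0.82, limma unadjusted p = 0.0884, adjusted p = 1.00). Cox7a2, the ubiquitous (liver) isoform of a complex IV subunit, read 17.4, 20.8 and 10.50 TPM with PGE2, against 23.3, 33.3 and 23.5 TPM with Vehicle. Atp5k, the e subunit of ATP synthase, read 102, 55.8 and 33.3 TPM with PGE2, against 143, 121 and 74.8 TPM with Vehicle, and had the smallest p of this list with overlapping groups (log2 change -0.91, limma unadjusted p = 0.0605, adjusted p = 1.00). Atp5g3 and Atp5l were its most expressed genes and had log2 changes of 0.08 each. Other well expressed subunits were at -0.74 (Ndufc1) and -0.45 (Ndufb3) in complex I, 0.65 (Uqcr10) and 0.10 (Uqcrq) in complex III and -0.08 (Cox7c) and 0.35 (Cox6a1) in complex IV. The 4 subunits of complex II had 2 higher and 2 lower (between 1 and 3 higher when 1 library was left out), with 0.17 for Sdha, which binds the flavin, and -0.09 for Sdhd, a membrane anchor.

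The 13 protein-coding genes of mitochondrial DNA had 6 higher and 7 lower fitted values and a median log2 change of -0.04. The number higher was 11 without PGE2 1 (median 0.41), 2 without PGE2 2 (median -0.21) and 10 without Vehicle 1, and it was 8 with median-ratio scaling and 4 with quantile normalization. The ATP synthase gene mt-Atp6 read 5985, 2751 and 3674 TPM with PGE2, against 1142, 967 and 1544 TPM with Vehicle, and every PGE2 library was above every Vehicle library (log2 change 1.72, limma unadjusted p = 0.00168, adjusted p = 0.613). The complex IV gene mt-Co2 read 4337, 6285 and 3352 TPM with PGE2, against 2284, 1561 and 686 TPM with Vehicle, also without overlap (log2 change 1.74, limma unadjusted p = 0.00533, adjusted p = 1.00). Neither passed after adjustment. These 2 of the 13 genes, 15.4%, were the ones without overlap, against 8.01% of all tested genes. The most expressed genes of this list, mt-Atp8 and mt-Nd2, had log2 changes of -0.05 and 0.21. The genes mt-Atp8 (chrM:7766-7969) and mt-Atp6 (chrM:7927-8607) overlap on the plus strand. Their reads could be split between them, so their separate changes are uncertain. The complex IV gene mt-Co3 read 1773, 3211 and 0.21 TPM with PGE2, against 857, 882 and 1030.0 TPM with Vehicle, so its log2 change of -2.27 rests on PGE2 3. Nuclear copies of mitochondrial DNA can share reads with these genes, so their levels are uncertain. The nuclear partners of mt-Atp6 and mt-Co2 among the members, Atp5a1 and Cox4i1 for example, had overlapping groups as given above.

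**Figure D5:**
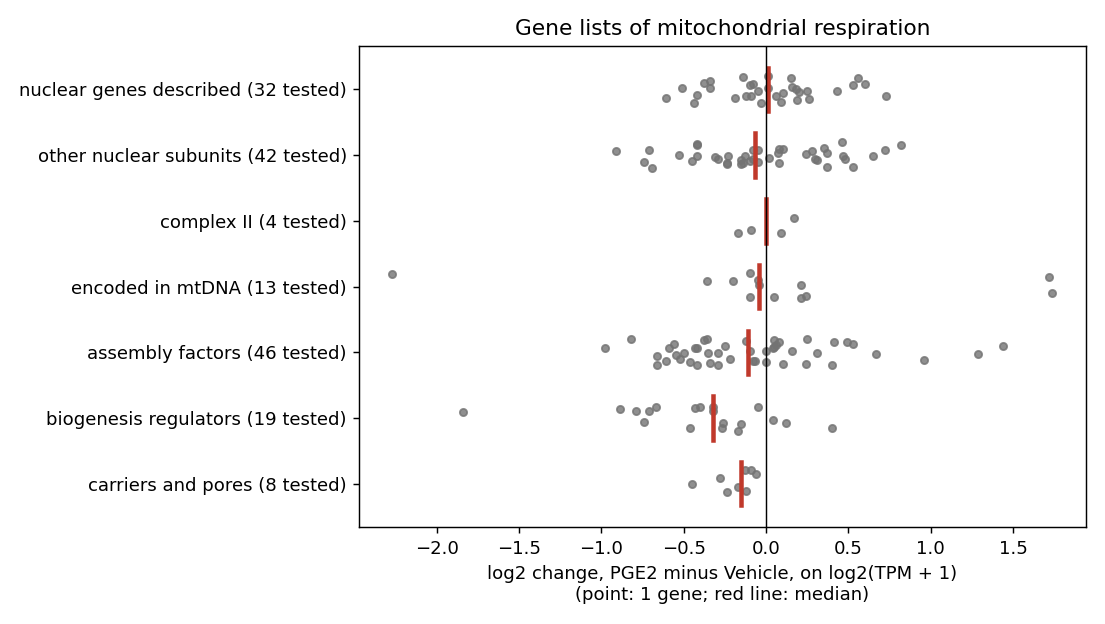
Log2 change, PGE2 minus Vehicle, of each tested gene in each list (1 point a gene, red line the median), on the log2(TPM + 1) scale. Medians lie near 0 for the described genes (0.01) and other nuclear subunits (-0.07), and lowest among the plotted pathway lists for biogenesis regulators (-0.32).

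Assembly factors build the complexes without staying in them, and 46 of 47 were tested, 19 with higher and 27 with lower fitted values (median -0.11). Cox18, which inserts a part of mt-Co2 into the inner membrane, read 63.2, 31.5 and 51.3 TPM with PGE2, against 31.5, 28.1 and 4.79 TPM with Vehicle. Its groups did not overlap, by the second decimal of PGE2 2 and Vehicle 1, and its log2 change was 1.44 (limma unadjusted p = 0.0439, adjusted p = 1.00). The complex IV factor Surf1, at 8.48, 4.79 and 15.6 TPM with PGE2, against 4.78, 4.18 and 3.14 TPM with Vehicle, was also without overlap by 0.01 TPM. Uqcc3, a complex III factor, read 1.72, 15.6 and 4.36 TPM with PGE2, against 2.27, 1.17 and 1.36 TPM with Vehicle (log2 change 1.29, limma unadjusted p = 0.0984, adjusted p = 1.00). The well expressed factors Ndufaf4 for complex I and Cox17, Cox20 and Cox16 for complex IV had log2 changes of -0.43, -0.61, -0.10 and -0.29. The changes were -0.38 for Ttc19 and 0.53 for Uqcc1 of complex III, and -0.52 for Tmem70 of ATP synthase. Atpif1, counted in this list although it encodes an inhibitor of ATP synthase, was at 0.05. All 8 of these genes had overlapping groups.

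Regulators of mitochondrial biogenesis had lower fitted values with PGE2 for 16 of 19 tested genes, 84.2%, against 56.1% of all tested genes, and a median log2 change of -0.32. The count was 16 of 19 under each rescaling of TPM and lay between 14 and 18 when 1 library was left out. Polrmt, the RNA polymerase of mitochondria, read 11.1, 0.84 and 0.16 TPM with PGE2, against 10.1, 11.2 and 7.78 TPM with Vehicle. PGE2 2 and PGE2 3 were low and PGE2 1 was not (log2 change -1.84, limma unadjusted p = 0.0472, adjusted p = 1.00). Sirt1, a deacetylase that acts on the coactivator PGC-1α, read 32.4, 24.5 and 31.5 TPM with PGE2, against 36.1, 37.9 and 48.7 TPM with Vehicle, and was the 1 gene of this list without overlap, 5.26%. Nrf1, whose motif stands in the Cycs and Uqcrc1 windows, read 18.2, 7.37 and 11.04 TPM with PGE2, against 23.4, 16.0 and 17.8 TPM with Vehicle, overlapping in PGE2 1 (log2 change -0.67, limma unadjusted p = 0.159, adjusted p = 1.00). Gabpa, a subunit of GABP, and Yy1, the most expressed genes of the list, had log2 changes of -0.26 and -0.32. Ppargc1a, which encodes PGC-1α, was at most 1.98 TPM with PGE2 and 2.60 TPM with Vehicle.

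The 8 tested genes in the list of carriers and pores, which exchange ATP, phosphate and ions, all had slightly lower fitted values (median -0.15, smallest limma unadjusted p = 0.435). Among them were Slc25a4, the ADP/ATP carrier of muscle and heart (-0.17), and Slc25a3, the phosphate carrier (-0.13). The list also counts Ckmt1 (-0.12), which encodes a mitochondrial creatine kinase and not a carrier or pore. The count of 8 was the same under each rescaling, and it was 6 or 7 when 1 library was left out.

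The subunit isoforms in use were the ubiquitous ones. The muscle and heart isoforms Cox6a2, Cox7a1 and Cox8b, the lung isoform Cox4i2, the hypoxia-related Ndufa4l2 and the testis cytochrome c gene Cyct were listed at 0 in all 6 libraries. Their ubiquitous counterparts were present throughout: Cox4i1, Cox8a and Cycs as given above, and Cox6a1 with 140.0, 105 and 98.4 TPM with PGE2, against 82.9, 101 and 83.0 TPM with Vehicle. The testis isoforms were listed above 0 in some libraries of both groups, at low levels. Cox7b2 read 12.1, 10.1 and 0 TPM with PGE2, against 0, 3.74 and 0 TPM with Vehicle, and Cox6b2 read 0, 10.6 and 1.23 TPM with PGE2, against 0, 0.90 and 3.48 TPM with Vehicle. Cox8c was listed above 0 only in Vehicle 3, at 1.28 TPM.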

How the data were processed

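RNA sequencing was done on 6 libraries of cultured mouse muscle stem cells, 3 with PGE2 and 3 with Vehicle. The values the authors deposited are TPM, 1 column per library; the unit was inferred from the values, which sum to between 992357 and 995645 per library. Per the submitters' processing notes, STAR, RSEM and mm10 were used; versions and settings were not given in the sources used here. TPM keeps no depth, so none is known and precision comes only from the spread between libraries. The 12781 genes that reached 1 TPM in 3 libraries were compared with limma 3.58.1 in R 4.3.3 on log2(TPM + 1), which understates changes of low genes. The variance prior had a mean trend, tests were two-sided, and p-values were Benjamini-Hochberg adjusted over all tested genes at a threshold of 0.05. The fit was tested on simulated data.

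The members and gene lists (221 entries, 220 matched) were chosen with earlier results of these data known, and no list was tested as a set. Values in every library are given for the highest and lowest change per complex, unadjusted p under 0.1, groups without overlap, the 3 highest and 3 lowest levels, Cycs and Ndufa4. From each other pathway list, up to 3 genes with the smallest p (under 0.1) and the 2 with the highest levels are named. Cox7a2, Surf1, Sirt1, Nrf1, Ppargc1a, mt-Co3, Eef1b2, single marker genes and the tissue isoforms were named after their values were seen. Positions come from GENCODE M21 (mm10; 42782 of 43283 identifiers matched), copies from BLAST 2.17.0 against its transcripts (95% identity over 80% of the copy), and promoters from RefSeq (GRCm38.p6). Alternatives covered the pseudocount, filter, scaling, variance prior, copies, a replicate block and each library left out.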

Additional observations from a re-analysis of the deposited data

How the results depend on the processing

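No member passed the limma threshold under any alternative. In the 9 alternatives other than leaving out a library, 3 members changed sign, each from a value near 0: Ndufs4 (0.026 with median-ratio scaling), Uqcrb (-0.018 without mitochondrial genes, -0.0013 with quantile normalization) and Atp5c1 (-0.020 without mitochondrial genes, -0.0061 summed with its copies). With median-ratio scaling 1 member, Uqcrc1, had groups without overlap, and with a robust variance prior 1 of all tested genes passed the threshold; the cause was not tested. The share of members with higher fitted values depended on the scaling, at 15 of 32 without mitochondrial genes, 16 with quantile normalization and 18 with median-ratio scaling. Same-numbered libraries did not deviate together (correlations -0.062, -0.044 and 0.07), so the numbers were not taken to pair them; with the replicate block 0 members and 0 genes passed, 482 genes had an unadjusted p under 0.05, and 17 members were higher.

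Leaving out 1 library at a time gave between 10 (without PGE2 1) and 22 (without Vehicle 1) members with higher fitted values, between 0 and 2 genes past the threshold, and between 2 and 8 members without overlap (5, 4 and 8 without PGE2 1, 2 and 3, and 6 without Vehicle 3), where fewer libraries make separation easier. A limma unadjusted p under 0.05 was reached by 2 of the 32 members without PGE2 1, 2 without PGE2 3 and 3 without Vehicle 3. The matching counts over all 12781 tested genes were 979, 758 and 314. For groups without overlap, no counts over all tested genes were made in these settings. The sign was kept under every alternative by 8 members, and 24 lost it without at least 1 library. Their log2 changes ran over -1.01 to 0.053 for Ndufa1, -0.99 to 0.14 for Ndufa2, -0.48 to 0.36 for Ndufa9, -0.19 to 0.56 for Ndufb5, -0.0011 to 0.90 for Ndufb8, -0.043 to 0.35 for Ndufb9, -0.14 to 0.79 for Ndufb10, -0.41 to 0.36 for Ndufs1, -0.24 to 0.74 for Ndufs3, -0.16 to 0.057 for Ndufs4, -0.55 to 0.31 for Ndufs8 and -0.30 to 0.11 for Ndufv2 in complex I. They ran over -0.084 to 0.46 for Uqcrc2, -0.52 to 0.57 for Uqcrb, -0.23 to 0.45 for Cyc1, -0.22 to 0.32 for Cycs, -0.23 to 0.076 for Ndufa4 and -0.11 to 0.61 for Cox5a in complex III, cytochrome c and complex IV, and over -0.86 to 0.080 for Cox6c, -0.34 to 0.022 for Cox8a, -0.27 to 0.37 for Atp5a1, -0.72 to 0.34 for Atp5b, -0.31 to 0.29 for Atp5c1 and -0.68 to 0.23 for Atp5o in the rest of complex IV and ATP synthase.

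Depth is unknown, so whether low levels such as those of Ndufs8 reflect few reads cannot be told.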
